A study of Danio rerio with 12 samples.

Results

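The genes described here make or take up cholesterol: hmgcs1, hmgcra, fdps, fdft1, sqlea, lss and cyp51, which encode enzymes of the synthesis pathway, insig1 and srebf2, which regulate it, and ldlra, the receptor for low-density lipoprotein. They were chosen by name, and the 23 probes whose annotated symbol, accession or older synonym belonged to them covered 9 of the 10 genes, out of 15080 named genes on the array. No probe was annotated to ldlra, so uptake through this receptor is not analysed here. Probes were averaged per gene on each array, and all 9 genes had enough values to be tested: hmgcs1 and cyp51 rested on 4 probes, fdps, insig1 and srebf2 on 3, hmgcra and lss on 2, and fdft1 and sqlea on 1. The probes of fdft1 and sqlea carried only the older names si:ch73-107c13.2 and zgc:171801.

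Whole larvae of wild-type zebrafish of strain AB, 21 days old, were compared after 15 days, starting 6 days after fertilization, of exposure to a soluble salt, silver nitrate (AgNO3), at 0.01 mg/L or to silver nanoparticles (AgNPs) at 0.01 mg/L. Control larvae had conditioned water with methylene blue, and the labels do not say whether the silver water held that dye too. Each of 12 2-colour microarrays held RNA of exposed larvae in 1 dye and RNA of control larvae in the other, with 6 arrays per silver form, 3 of them with the exposed RNA in Cy5 and 3 in Cy3. By the sample codes, 6 control samples each served on 1 array of either silver form, so the comparisons with control share them. Replicates are labelled biological, but the number of tanks and of pooled larvae behind them is not stated, and p-values measure no more than the spread between samples.

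Animal cells build cholesterol from acetyl-CoA through mevalonate, farnesyl diphosphate and squalene. When sterols in the endoplasmic reticulum run low, the transcription factor SREBP-2, encoded by srebf2, is carried to the Golgi, cleaved and sent to the nucleus, where it raises the transcription of nearly the whole pathway and of the low-density lipoprotein receptor. INSIG proteins hold the precursor back when sterols are plentiful. In fish, as in mammals, the liver, gut and nervous system are major sites of sterol synthesis and handling.

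The values are log ratios of the 2 channels, taken here as log2 and as exposed over control; the base is not named in the labels. That direction is assumed and not settled, since the sources do not say how dye-swapped arrays were turned before deposit. Over the features here, arrays of 1 orientation correlated on average at 0.0815 in AgNO3 and 0.0924 in AgNPs. Arrays that differed in orientation did so at -0.0241 and -0.0215, so these correlations do not settle it either. Turning the values of the dye-swapped arrays would change the sign of 3 arrays in each group, so every count of arrays above or below 0 given here holds for the values as deposited. The arrays differed in spread: the interquartile range was 0.216 to 0.342 for AgNO3, 0.293 and 0.233 for AgNPs replicates 1 and 2, and 0.0946 to 0.116 for AgNPs replicates 3 to 6. Without intensities, no level of any gene or marker can be given, so whether the tissue markers of whole larvae were present was not tested, and depth is unknown. In whole larvae a change in the number of cells of a type cannot be told apart from a change of RNA per cell.

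No gene of the set passed the test against control in either silver form. In AgNO3 larvae, 4 of 9 genes had a fitted log2 ratio above 0 (48.2% of all features did) and 5 below, and their median was -0.019 against -0.0056 over all 25264 features tested. In AgNPs larvae, 7 of 9 were above 0 (51.7% of all features) and 2 below, with a median of 0.10 against 0.0028. In limma's moderated test with Benjamini-Hochberg adjustment over all features, adjusted p-values of the 9 genes ran from 0.63 to 0.9995 in AgNO3 (0.0119% of all features passed 0.05) and were 0.9999 in AgNPs (0.0237% passed). At an unadjusted p under 0.05 stood 0 of the 9 genes in AgNO3, where 8.25% of all features did, and 3 of 9 in AgNPs, where 4.24% did: insig1, hmgcra and fdps. All 3 were above 0, where 2.05% of all features had such a p and a value above 0. The fit used the same spread per gene for both silver forms. Between arrays the standard deviation in AgNPs and AgNO3 was 0.45 and 0.24 for insig1, 0.38 and 0.11 for hmgcra, and 0.088 and 0.13 for fdps. For insig1 and hmgcra the AgNPs p and interval thus draw on the less spread AgNO3 arrays. With the dye-swapped arrays turned, the AgNPs values of insig1, hmgcra and fdps were 0.040, -0.10 and -0.014, so the direction of hmgcra and fdps depends on how the deposited values are read. Turned, 5 of 9 genes were above 0 in either silver form, with a median of 0.016 in AgNO3 and 0.040 in AgNPs. In that setting 1 of 9 had an unadjusted limma p under 0.05 in each silver form, and shares over all features were not taken. As deposited, the AgNPs median was 0.055 without AgNPs replicate 6 and 0.16 after scaling the arrays to equal spread. The set was picked with earlier results of these data known, among them the positive values in AgNPs, so these counts are a description of the 9 genes and not independent support for a direction.

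**Figure D1:**
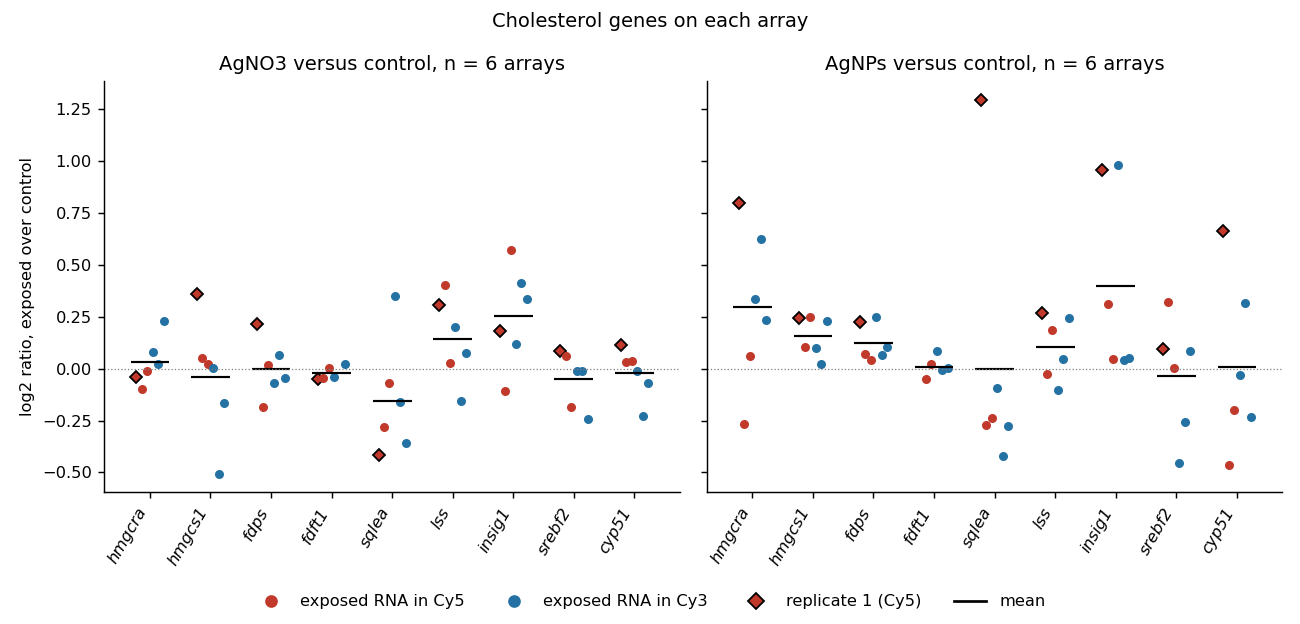
Log2 ratio of exposed over control (vertical axis) of each measured cholesterol gene on the 6 AgNO3 arrays (left) and the 6 AgNPs arrays (right). Points are arrays, red with exposed RNA in Cy5 and blue in Cy3, diamonds are replicate 1, and bars are means. On AgNPs replicate 1, sqlea stands at 1.295, insig1 at 0.96, hmgcra at 0.80 and cyp51 at 0.66, while most other points lie between -0.5 and 0.5.

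The entry into the pathway is made by hmgcs1, the cytosolic HMG-CoA synthase, which joins acetyl-CoA to acetoacetyl-CoA. In AgNO3 its log2 ratio ran from -0.51 through a median of 0.012 to 0.36 over 6 arrays. In AgNPs it ran from 0.025 through 0.17 to 0.25. As deposited, all 6 AgNPs arrays were above control, and the AgNO3 arrays lay on both sides of 0 and overlapped them. The fitted value was -0.040 (SE 0.076) in AgNO3 and 0.16 (SE 0.076, 95% interval -0.0098 to 0.33) in AgNPs. Turning the dye-swapped arrays gave 0.18 and 0.041, in the opposite order, and scaling the arrays gave 0.27 in AgNPs. The 4 probes parted, with fitted values of -0.23, 0.27, -0.23 and 0.060 in AgNO3. In AgNPs the first stood at 0.45 and the others at 0.074, -0.0047 and 0.12.

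The next step is the reduction of HMG-CoA to mevalonate by HMG-CoA reductase, the rate-limiting enzyme and the target of statins, encoded by hmgcra. Its log2 ratio ran from -0.097 through 0.0038 to 0.23 in AgNO3, with 3 arrays on each side of 0. In AgNPs it ran from -0.27 on replicate 2 through 0.28 to 0.80 on replicate 1, with 5 of 6 arrays above 0. The AgNPs values thus spread over a range that contains all 6 AgNO3 values. The fitted value in AgNPs was 0.30 (SE 0.11, 95% interval 0.055 to 0.54), with 0.17 without replicate 1 and 0.53 after scaling (limma adjusted p = 0.26). The 2 probes did not rank the arrays alike, with a correlation of -0.55 over 12 arrays. On AgNPs replicate 1 the first stood at 2.18 and the second at -0.58, while on AgNPs replicate 5 the first stood at -0.054 and the second at 1.301. That -0.054 was also the value of the first insig1 probe on the same array.

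Farnesyl diphosphate synthase, encoded by fdps, makes the last intermediate that sterols share with ubiquinone and prenylated proteins. In log2 ratio it ran from -0.18 through -0.012 to 0.21 in AgNO3, 3 arrays on each side. In AgNPs it ran from 0.043 through 0.086 to 0.25, above 0 on 6 of 6 arrays. The values are small in both groups and overlap. The fitted AgNPs value was 0.13 (SE 0.056, 95% interval 0.0015 to 0.25), with a mean of 0.11 where exposed RNA was in Cy5 and 0.14 where it was in Cy3, and all 3 probes were above 0, from 0.051 to 0.19. Scaled to a common spread, it was 0.22.

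Squalene synthase, encoded by fdft1, commits farnesyl diphosphate to sterols. Its log2 ratios were the least spread of the set: -0.048, -0.047, 0.0015, -0.042 and 0.024 on the 5 AgNO3 arrays with a value (replicates 1 to 4 and 6), and -0.0495, 0.022, 0.084, -0.0078 and 0.0016 on the 5 AgNPs arrays with a value (replicates 2 to 6). All these values lie close to 0 and the groups overlap. They rest on 1 probe, whose value on AgNPs replicate 6 (0.00157) was also that of the second srebf2 probe. Without intensities, a small spread near 0 cannot be told apart from a probe without measured signal. The 95% intervals of the fitted values were -0.12 to 0.083 in AgNO3 and -0.095 to 0.11 in AgNPs.

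Squalene epoxidase, encoded by sqlea, adds oxygen to squalene and is another control point of the pathway. In AgNO3 its log2 ratio ran from -0.42 through -0.22 to 0.35, and 5 of 6 arrays were below 0, all but replicate 4. In AgNPs, 5 arrays lay between -0.42 and -0.094, and replicate 1 alone stood at 1.295. By the sample codes, AgNO3 replicate 4 and AgNPs replicate 1 shared a control sample, and the part of that control was not tested. The fitted values were -0.15 (SE 0.20) in AgNO3 and -0.00091 (SE 0.20) in AgNPs, and the latter was -0.27 without replicate 1. That array thus decides the fitted AgNPs value of sqlea, which rests on 1 probe.

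Lanosterol synthase, encoded by lss, closes the rings of the sterol. The arrays ran from -0.16 through 0.14 to 0.40 in AgNO3, with 5 of 6 arrays above 0, and from -0.11 through 0.12 to 0.27 in AgNPs, with 4 of 6 above 0. Both groups covered much the same range. The fitted values were 0.14 (SE 0.072, 95% interval -0.017 to 0.30) and 0.10 (SE 0.072), and nearly all of each came from the first of its 2 probes, at 0.19 and 0.20, while the second stood at -0.0012 and 0.0076. Without AgNPs replicate 6 the AgNPs value was 0.055. AgNO3 replicates 2 and 4 had a value for the first probe only. On AgNPs replicate 2 the second probe held -0.01258, as did the fourth hmgcs1 probe. On AgNPs replicate 6 it held 0.002956, as did the first hmgcra probe. Whether such shared values near 0 carry signal was not tested.

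Lanosterol 14-alpha-demethylase, encoded by cyp51, carries out the next step. Values ran from -0.23 through 0.011 to 0.11 in AgNO3. In AgNPs it ran from -0.46 on replicate 2 through -0.12 to 0.66 on replicate 1. The AgNPs arrays were thus far more spread, with 2 above and 4 below 0, around a fitted value of 0.0078 (SE 0.12; -0.13 without replicate 1). Of the 4 probes, the third stood at 1.78 and the fourth at -0.20 on AgNPs replicate 1.

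**Figure D2:**
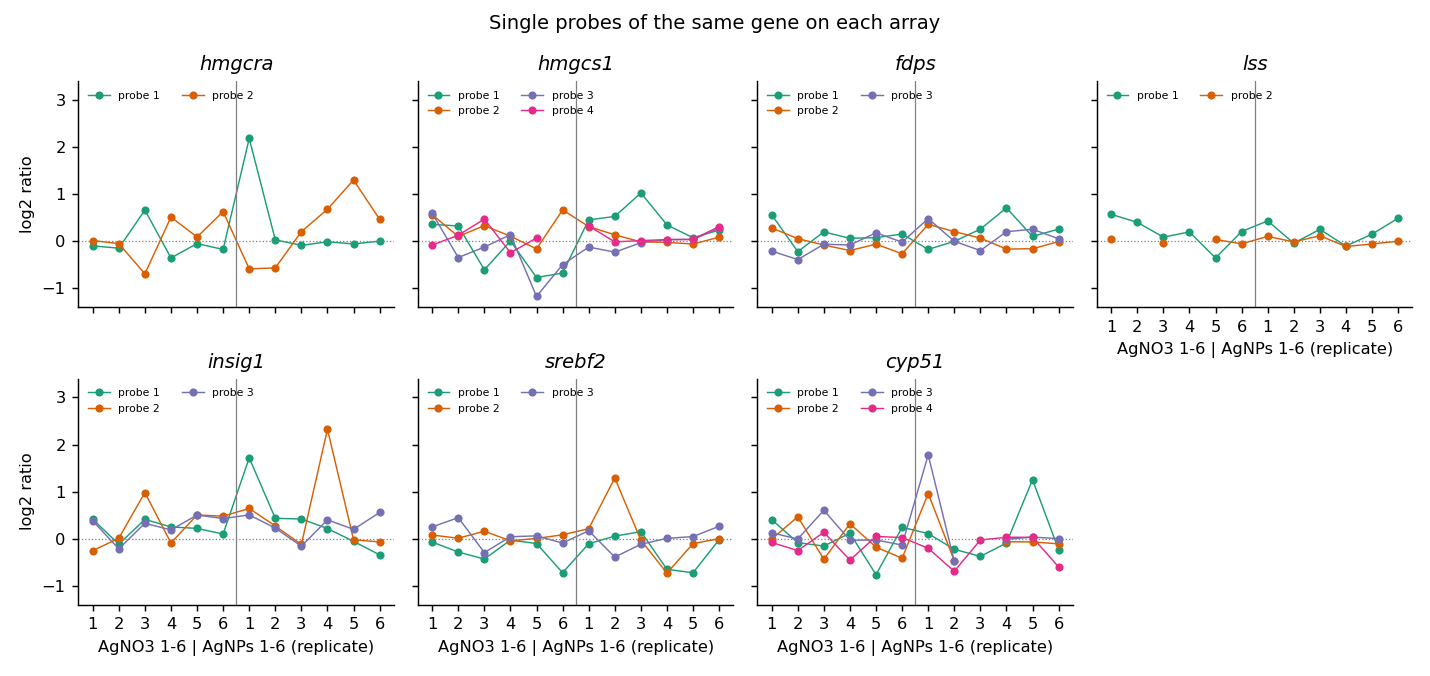
Log2 ratio (vertical axis) of the single probes of the 7 members with more than 1 probe on each of the 12 arrays (horizontal axis, AgNO3 replicates left of the line, AgNPs replicates right of it). Probes of a gene often part on an array: on AgNPs replicate 4, for example, the second probe of insig1 stands at 2.33 and the first at 0.22.

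Of the regulators, srebf2 encodes the precursor of SREBP-2 itself. Its log2 ratio ran from -0.24 through -0.0096 to 0.087 in AgNO3 and from -0.46 through 0.042 to 0.32 in AgNPs. Both groups lay on either side of 0, and the fitted values were -0.050 (SE 0.080) and -0.036 (SE 0.080). The 3 probes parted, at -0.27, 0.050 and 0.071 in AgNO3 and -0.21, 0.11 and -0.0018 in AgNPs. On AgNPs replicate 2 the second probe stood at 1.29 and the third at -0.39.

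The gene insig1 encodes a protein that retains the SREBP precursor and aids the breakdown of HMG-CoA reductase, and in mammals it is itself a target of SREBP-2. As deposited, its fitted value was the highest of the set in both groups; with the dye-swapped arrays turned it stood at -0.036 in AgNO3 and 0.040 in AgNPs, below hmgcs1 (0.18) and sqlea (0.26). In AgNO3 its log2 ratio ran from -0.11 on replicate 2 through 0.26 to 0.57, with 5 of 6 arrays above 0. In AgNPs it was 0.96, 0.31, 0.048, 0.98, 0.042 and 0.0505 on replicates 1 to 6. All 6 AgNPs arrays were above 0, with replicates 1 and 4 near 1 and replicates 3, 5 and 6 close to 0. The fitted values were 0.25 (SE 0.15, 95% interval -0.072 to 0.58) in AgNO3 and 0.40 (SE 0.15, 95% interval 0.074 to 0.72) in AgNPs. All 3 of its probes were above 0 in each group, from 0.21 to 0.27 in AgNO3 and from 0.29 to 0.51 in AgNPs, the only multi-probe member with that in AgNO3. The high value on AgNPs replicate 1 came mainly from the first probe (1.72) and that on replicate 4 from the second (2.33). With the median over probes in place of the mean, the fitted AgNPs value was 0.18, without replicate 4 it was 0.27, and scaling the arrays gave 0.62.

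Averaged over the set, the log ratios were farthest from 0 on AgNPs replicate 1. There the mean log2 ratio over the members was 0.57 and 8 of 8 members with a value were above 0, while 51.7% of all features were. On the other 5 AgNPs arrays the mean was -0.030 to 0.12, with 4 to 7 of 9 above 0, and on the AgNO3 arrays it was -0.071 to 0.084, with 3 to 6 above 0. Its control sample was used again on AgNO3 replicate 4, where the mean was 0.069. Without AgNPs replicate 1 the median over the fitted AgNPs values was 0.082.

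Across the 12 arrays, the 36 pairs of members had a median Pearson correlation of 0.26, from -0.79 (fdft1 and srebf2) to 0.78 (hmgcra and cyp51), and 25 pairs were above 0. Over all pairs of the 11943 genes with a value on every array the median was 0.0020. Without AgNPs replicate 1 the members' median was -0.066, with 15 of 36 pairs above 0, and the pair sqlea and cyp51 went from 0.63 to -0.096. The positive median among the members therefore rests on that array, but not every single pair does. Without it, hmgcra and cyp51 stood at 0.58, hmgcs1 and lss at 0.59, and fdps and insig1 at 0.55, while hmgcra and sqlea went from 0.54 to -0.15. Probes of the same member correlated at a median of 0.12 over 23 pairs of probes, against 0.072 over all 9725 pairs of probes that share a gene, so the averages of genes with several probes hold readings that vary largely apart. These correlations are descriptions, since the arrays share control samples and dyes.

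The genes outside the set whose log ratios followed the members' mean most closely, among 11935 searched, were myh7, a myosin heavy chain gene (r = 0.962), znf971 (0.958), rab32b (0.957), p2rx2, an ATP-gated ion channel gene (0.957), and zgc:158417 (0.955). All 5 were high on AgNPs replicate 1, from 0.79 to 2.78, and without it their r was between 0.41 and 0.75 over 11 arrays. The members' mean was farthest from 0 on that array, so high values there follow from the choice by r. The r over 11 arrays comes after the same choice and was not tested. The fitted log2 ratios of these 5 genes ran from -0.28 to 0.069 in AgNO3 and from 0.076 to 0.48 in AgNPs, and limma adjusted p was at least 0.64 for each.

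The salt and the particles were also compared directly as AgNO3 minus AgNPs. Of the 9 genes, 8 had a difference below 0 and 1 above (48.2% of all features were above), with a median of -0.13 against -0.0075 over all features. No member passed (limma adjusted p 0.86 to 0.98, 0% of all features passed), and 0 of 9 had an unadjusted p under 0.05, where 4.22% of all features did. The difference was -0.27 for hmgcra (95% interval -0.61 to 0.076), -0.20 for hmgcs1 (-0.44 to 0.040) and -0.13 for fdps (-0.30 to 0.051). For insig1 it was -0.15 (-0.60 to 0.31) and for sqlea -0.15 (-0.76 to 0.46). For cyp51, srebf2, fdft1 and lss it was -0.029, -0.014, -0.026 and 0.040. Fitted singly, both lss probes were below 0 (-0.012 and -0.0089), and the second had no value on AgNO3 replicates 2 and 4. The 4 hmgcs1 probes ran from -0.67 to 0.19 in this difference. The intervals of hmgcra, insig1 and sqlea are wide enough to hold both no difference and a difference of more than 0.5, so the data do not show that the silver forms act alike on them. The median difference turned to 0.020, with 6 of 9 genes above 0, when the dye-swapped arrays were turned. As deposited it was -0.023 without AgNPs replicate 1, -0.078 without AgNO3 replicate 1, -0.066 without AgNO3 replicate 2, -0.026 with the median over probes, -0.050 with scaled arrays and -0.046 with array weights. Without AgNPs replicate 1 the difference of hmgcra was -0.14, that of insig1 -0.023 and that of sqlea 0.12. The insig1 difference was also -0.016 without AgNPs replicate 4 and -0.066 without AgNO3 replicate 2, and the hmgcs1 difference was -0.12 without AgNO3 replicate 5.

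**Figure D3:**
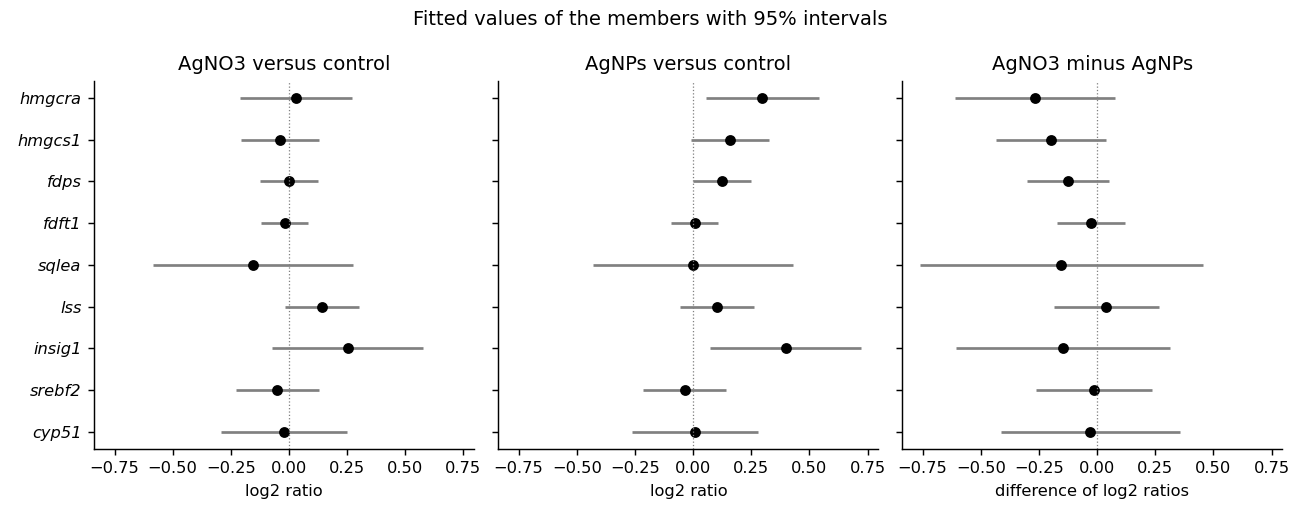
Fitted log2 ratio (points, horizontal axis) with 95% interval (lines) of each measured member in AgNO3 versus control, AgNPs versus control and AgNO3 minus AgNPs, from 12 arrays in 1 model. All AgNO3 intervals include 0, as do all of AgNO3 minus AgNPs. Before adjustment the intervals of hmgcra, fdps and insig1 lie above 0 in AgNPs. The model used the same spread per gene for both silver forms, and hmgcra and insig1 varied more between arrays in AgNPs than in AgNO3.

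Other enzymes of cholesterol synthesis did not pass either: of 18 listed, 15 were tested, 0 passed in each silver form, and the median was -0.027 in AgNO3 (6 above 0, 9 below) and 0.030 in AgNPs (8 above, 7 below). At an unadjusted limma p under 0.05 stood 2 of 15 in AgNO3 (8.25% of all features) and 0 in AgNPs (4.24%). The first was mvda, mevalonate diphosphate decarboxylase, with a fitted value of -0.20 (SE 0.085, limma adjusted p = 0.58, 5 of 6 arrays lower) in AgNO3 and 0.14 (SE 0.085) in AgNPs, where 6 of 6 arrays were higher. Its AgNPs value was 0.074 without AgNPs replicate 1, and with the dye-swapped arrays turned mvda stood at -0.013 and 0.020. The second was nsdhl, a sterol dehydrogenase of the late pathway, with 0.19 (SE 0.069, limma adjusted p = 0.52, 5 of 6 higher) in AgNO3 and -0.052 (SE 0.069) in AgNPs. The paralog of the rate-limiting reductase gene, hmgcrb, stood at 0.34 (SE 0.18) in AgNO3, or -0.31 with the dye-swapped arrays turned, and at -0.17 (SE 0.18) in AgNPs.

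Among genes that process or regulate SREBP, 7 of 12 listed were tested and 0 passed, with medians of -0.065 in AgNO3 and 0.014 in AgNPs. At an unadjusted limma p under 0.05 stood 2 of 7 in AgNO3 (8.25% of all features) and 1 of 7 in AgNPs (4.24%). With the dye-swapped arrays turned, 3 and 1 of 7 had such a p, and shares over all features were not taken in that setting. The site-2 protease gene mbtps2, whose product makes the cut that frees SREBP, stood at 0.12 (SE 0.042, limma adjusted p = 0.53, 6 of 6 arrays higher) in AgNO3 and 0.047 in AgNPs. The gene mylipb belongs to the family of MYLIP (IDOL), a ubiquitin ligase that in mammals sends the low-density lipoprotein receptor to degradation. It stood at -0.16 (SE 0.047, limma adjusted p = 0.46) in AgNO3 and -0.15 (SE 0.047, adjusted p = 0.95) in AgNPs, lower on 5 of 6 arrays each, with its 2 probes on opposite sides of 0 in AgNPs. With exposed RNA in Cy5, mylipb ran from -0.44 to -0.19 in AgNO3 and from -0.37 to -0.21 in AgNPs. With exposed RNA in Cy3, it ran from -0.084 to 0.024 and from -0.072 to 0.072. Turning the dye-swapped arrays gave -0.13 in either silver form, and the part of the dye was not tested.

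Of sterol uptake and transport genes, 9 of 15 listed were tested and 0 passed, with medians of -0.036 in AgNO3 and 0.031 in AgNPs, and 1 of 9 had an unadjusted limma p under 0.05 in each silver form, as had 8.25% of all features in AgNO3 and 4.24% in AgNPs. The lysosomal membrane protein gene scarb2a stood at -0.23 (SE 0.089, limma adjusted p = 0.55, 6 of 6 lower) in AgNO3, and -0.14 without AgNO3 replicate 2, which stood at -0.73. In AgNPs it stood at -0.11 (SE 0.089). The very low density lipoprotein receptor gene vldlr stood at -0.0030 in AgNO3 and at 0.20 (SE 0.088, limma adjusted p = 0.9999, 6 of 6 higher) in AgNPs, and there at 0.094 without replicate 1, which stood at 0.82. Its 4 probes lay on both sides of 0 in each group.

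Of 19 genes of sterol efflux, storage and bile acid synthesis, 13 were tested and 0 passed. They gave medians of -0.11 in AgNO3 (9 of 13 below 0) and -0.091 in AgNPs (10 of 13 below 0), and 3 of 13 had an unadjusted limma p under 0.05 in each silver form, as had 8.25% of all features in AgNO3 and 4.24% in AgNPs. With the dye-swapped arrays turned, the medians were 0.030 and -0.010, and such a p was held by 0 and 2 of 13. The gene cyp7a1 encodes the rate-limiting enzyme of bile acid synthesis from cholesterol. Its log2 ratios lay from -0.91 through -0.53 to -0.19 in AgNO3 and from -0.85 through -0.27 to -0.057 in AgNPs. As deposited, all 6 arrays of each group were below 0. The fitted values were -0.51 (SE 0.092, limma adjusted p = 0.17) and -0.37 (SE 0.092, adjusted p = 0.57). All 3 probes were below 0 in both groups but differed in size, from -1.01 to -0.22 in AgNO3 and from -0.87 to -0.075 in AgNPs. After turning the dye-swapped arrays, cyp7a1 stood at -0.20 and -0.091, and with the median over probes its AgNPs value was -0.22.

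The gene cyp8b1.1 encodes a sterol 12-alpha-hydroxylase of the same route. Its log2 ratio ran from -1.19 through -0.61 to -0.27 in AgNO3, below 0 on 6 of 6 arrays, and from -1.58 through -0.85 to 0.39 in AgNPs, below 0 on 5 of 6, all but replicate 1. The fitted values were -0.68 (SE 0.20, limma adjusted p = 0.43) and -0.73 (SE 0.20, adjusted p = 0.67). Turned, cyp8b1.1 stood at -0.095 and 0.54. The AgNPs value was -1.61 after scaling and -0.059 without AgNPs replicates 3 to 6. The latter fit keeps only AgNPs arrays with exposed RNA in Cy5, so it cannot tell silver form from dye orientation. In the opposite direction stood nr0b2a, the gene of the small heterodimer partner (SHP), a nuclear receptor that in mammals represses cyp7a1 and cyp8b1. Its log2 ratio ran from 0.11 through 0.43 to 1.37 in AgNO3 and from 0.067 through 0.39 to 0.60 in AgNPs, above 0 on all 6 arrays of each group. The fitted values were 0.55 (SE 0.14, adjusted p = 0.35) and 0.37 (SE 0.14, adjusted p = 0.9999), and 0.13 in either silver form with the dye-swapped arrays turned. In AgNO3 minus AgNPs the 3 genes stood at -0.14, 0.057 and 0.18, each with a 95% interval that included 0. The values of cyp8b1.1 and nr0b2a rest on 1 probe each, and a link of nr0b2a with cyp7a1 or cyp8b1.1 was not tested. As the comparisons with control share control samples, values on the same side of 0 in AgNO3 and AgNPs are no independent repeat.

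**Figure D4:**
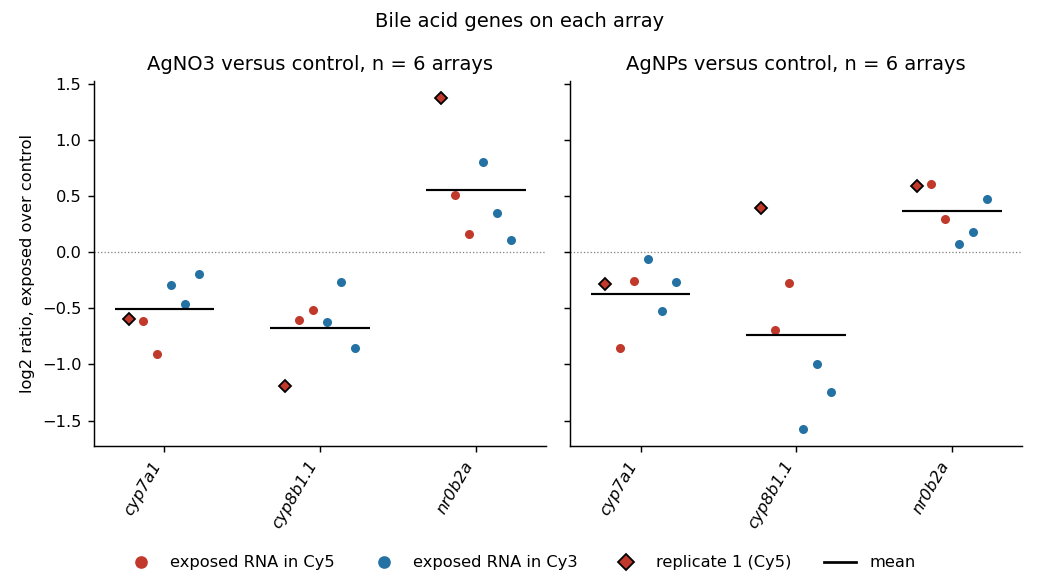
Log2 ratio of exposed over control (vertical axis) of cyp7a1, cyp8b1.1 and nr0b2a on the 6 AgNO3 and the 6 AgNPs arrays. Points are arrays, red with exposed RNA in Cy5 and blue in Cy3, diamonds are replicate 1, and bars are means. All cyp7a1 points lie below 0 and all nr0b2a points above 0, and of cyp8b1.1 only AgNPs replicate 1 lies above 0.

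Of fatty acid synthesis genes, many of them targets of the related factor SREBP-1, 11 of 12 listed were tested and 0 passed. As deposited, none had an unadjusted limma p under 0.05, as had 8.25% of all features in AgNO3 and 4.24% in AgNPs. Medians were 0.015 in AgNO3 and 0.038 in AgNPs, with values from -0.21 to 0.23 and from -0.59 to 0.28. With the dye-swapped arrays turned, the medians were -0.12 and -0.096, with 9 and 8 of 11 below 0. Such a p was then held by 0 and 2 of 11, and shares over all features were not taken in that setting. The gene me1, malic enzyme, which supplies NADPH, stood at 0.23 (SE 0.11, limma adjusted p = 0.61) in AgNO3, and 0.14 without AgNO3 replicate 2. In AgNPs it stood at 0.14. The lipid droplet gene pnpla3 stood at -0.024 in AgNO3 and at -0.24 (SE 0.11, limma adjusted p = 0.9999) in AgNPs, and there at -0.13 without replicate 1.

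**Figure D5:**
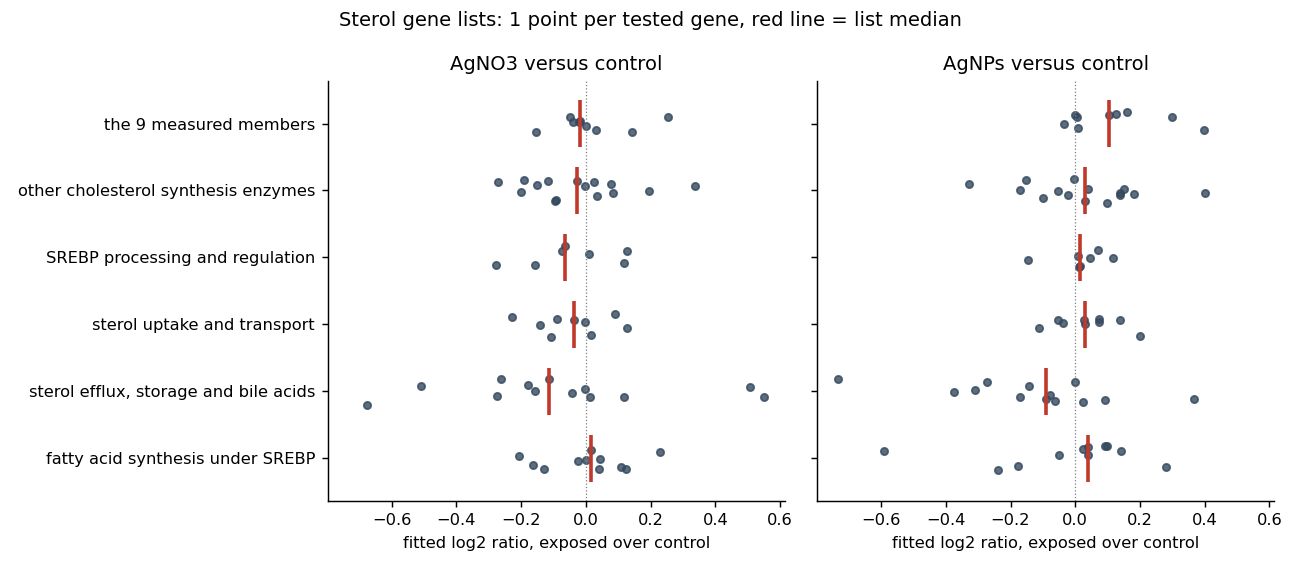
Fitted log2 ratio (horizontal axis) of every tested gene of the 6 sterol and lipid lists, AgNO3 left and AgNPs right; red lines are list medians. Medians lie between -0.11 and 0.10, and the points farthest from 0 belong to the list of efflux, storage and bile acid genes and, in AgNPs, also to the fatty acid list.

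Markers of tissues that handle sterols gave the following values beside these results. Hepatocyte markers had a median of 0.085 in AgNO3 (9 of 15 above 0) and 0.027 in AgNPs (11 of 15 above 0), and their median on single arrays ran from -0.295 to 0.54 in AgNO3 and from -0.32 to 0.31 in AgNPs. Enterocyte markers had medians of 0.0093 and -0.12 (6 of 11 above 0 in AgNO3 and 3 of 11 in AgNPs). They ranged from -0.50 to 0.25 in AgNO3 and from -0.82 to 0.20 in AgNPs. Highest in both groups was apoa4b.1 (0.25 and 0.20), and fabp6 stood at 0.25 and 0.099. With the dye-swapped arrays turned, apoa4b.1 stood at -0.20 and -0.34, and fabp6 at -0.17 and -0.32. Both were likewise named after their values were seen. As deposited, the transporter and brush border genes slc15a1b (-0.50 and -0.69), anpepb.1 (-0.41 and -0.58) and slc5a1 (-0.28 and -0.40) were below 0 on all 12 arrays, and slc26a3.2 stood at -0.032 in AgNO3 and -0.82 in AgNPs (limma adjusted p = 0.16). These 4 were named after their values were seen, and with the dye-swapped arrays turned they lay between -0.092 and 0.17 in AgNO3 and between -0.11 and 0.26 in AgNPs. The values of slc15a1b and slc26a3.2 rest on 1 probe each. In AgNO3 minus AgNPs, 11 of 11 enterocyte markers were above 0 as deposited (median 0.14), where 48.2% of all features were, and 9 of 11 turned. Of these 11, 1 (slc26a3.2) had an unadjusted limma p under 0.05, as had 4.22% of all features, and 0 passed (adjusted p at least 0.86). Hepatocyte markers, turned, had medians of -0.18 and -0.21, with 13 of 15 below 0 in AgNO3 and 11 of 15 in AgNPs. Turned, 5 of 15 had an unadjusted limma p under 0.05 in each silver form, and shares over all features were not taken in that setting. Medians in AgNO3 and AgNPs were, for myelin and glia markers, 0.0081 and 0.094, and for markers of steroid-making cells, -0.0096 and 0.0072. On AgNPs replicate 1 the medians of the 4 lists were -0.0059, -0.16, 0.18 and 0.029. No marker passed in limma, at an unadjusted p under 0.05 stood 9 of 41 markers in AgNO3 (8.25% of all features) and 6 of 41 in AgNPs (4.24%), and their part in the sterol gene values was not tested.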

How the data were processed

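The deposited values, taken as log2 ratios of the 2 channels, came from the authors with 43603 probes on each of 12 arrays; no source used here names the log base, the background correction or the normalization. Values ran from -8.02 to 7.67, array medians from -0.0093 to 0.015, and 6.97% to 10.9% of an array's values were empty. Total RNA was prepared with Trizol, per the labels' protocols.

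Probes were named by accession, symbol or synonym through the platform annotation and the RefSeq gene table of GRCz12tu (30186 named, 13417 not) and averaged per gene, which gave 28497 features. A feature needed values on at least 2 of 3 arrays of each dye orientation in each group, which left 25264. All 12 arrays were fitted together (limma 3.58.1 under R 4.3.3), with a mean per silver form and a dye term. Each feature was fitted with the same spread for both silver forms. Tests were moderated and 2-sided, adjusted by Benjamini-Hochberg over all features, at 0.05. In data simulated for AgNPs versus control over 25264 features, the test called 41.8% of the features given a shift of 0.5, 74.6% at a shift of 1 and 94.9% at a shift of 2. The simulated noise was normal, independent between arrays and, for each feature, of the same spread on every array. The real arrays share control samples and differ in spread, so these rates need not hold for them. Members, lists and tests were chosen with earlier results of these data known. Named from each other list were genes with an unadjusted p under 0.05 in either silver form, or the 2 of lowest p where fewer had it, plus the 5 genes most like the members' mean; hmgcrb, outside this rule, was named after its values were seen. Alternatives covered blocks, scaling, weights, the dye term, turned arrays, gaps, probes and left-out arrays. No other value column was left out.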

Additional observations from a re-analysis of the deposited data

Results flagged for a closer look

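In 42 sets of values (each member, each other named gene and the members' mean in each silver form), the highest or lowest array was set against the rest by its gap relative to the range. Of these, 5 stood apart. Chance flags about 1 set in 20 if arrays are equally spread and sets independent, and neither holds here. The interquartile range was 0.293 on AgNPs replicate 1 and 0.0946 to 0.116 on AgNPs replicates 3 to 6. The members' mean contains sqlea, and the other named genes were picked by p. That rate is therefore no measure of whether 5 is many. On AgNPs replicate 1, sqlea stood at 1.295 against -0.094 for the next array, vldlr at 0.8223 against 0.16, and the mean of the members at 0.5677 against 0.12. On AgNPs replicate 3, nsdhl stood at -0.2635 against -0.069. On AgNO3 replicate 2, scarb2a stood at -0.729 against -0.24.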

How the results depend on the processing

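No member passed under any alternative, so members past the threshold stayed at 0. The lowest adjusted p of a member was 0.47 in AgNO3, 0.26 in AgNPs and 0.82 in AgNO3 minus AgNPs, and of the other named genes 0.12 in either silver form. Of 206, 206 and 197 member values under alternatives, 12, 22 and 24 changed sign (given below), the direction of hmgcra in AgNPs among them. Signal over background is unknown and limits single probes. Probes of different members at times held the same value near 0 on an array, and whether these values carry signal was not tested.

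Over all features, 3 passed in AgNO3, 6 in AgNPs and 0 in the difference. In AgNO3, 0 passed after scaling all arrays to 1 spread, with array weights, on the AgNO3 arrays alone and without AgNPs replicates 3 to 6, and 1 did with each probe tested on its own. In AgNPs, 20 passed with scaled arrays, 10 with array weights, 10 without AgNPs replicates 3 to 6, 0 on the AgNPs arrays alone and 0 with the dye-swapped arrays turned. In the difference, 7 passed without AgNPs replicates 3 to 6. Without these replicates the AgNPs group holds only arrays with exposed RNA in Cy5. The AgNPs and difference counts of that fit therefore cannot tell silver form from dye orientation. Leaving out single arrays gave 0 to 2, 1 to 7 and 0 to 1. Why these counts moved was not tested. Same-numbered replicates did not deviate together (r -0.1 to 0.0071 over 6 pairs). Arrays that shared a control sample stood at r -0.0067 to 0.048 by the same measure. It thus hardly shows a sharing that is known, and cannot decide whether the numbers pair samples. With the replicate block 3, 6 and 0 features passed, and with the control sample as a block also 3, 6 and 0.

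With the dye-swapped arrays turned, AgNO3 values changed sign to -0.080 for hmgcra, 0.18 for hmgcs1, -0.036 for insig1, 0.037 for srebf2, 0.082 for cyp51, -0.056 for nsdhl, -0.022 for mbtps2, 0.13 for vldlr and -0.15 for me1. AgNPs values changed to -0.10 for hmgcra, -0.014 for fdps, -0.0225 for fdft1, 0.26 for sqlea, 0.17 for srebf2, -0.00805 for cyp51, -0.026 for mbtps2, 0.54 for cyp8b1.1 and -0.049 for me1. Differences changed to 0.020 for hmgcra, 0.14 for hmgcs1, 0.030 for fdps, 0.0090 for fdft1 and 0.090 for cyp51.

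With scaled arrays, cyp51 in AgNPs became -0.043, and the differences became 0.11 for sqlea, -0.050 for lss, 0.13 for srebf2 and 0.017 for cyp51. With array weights, the difference of srebf2 became 0.040 and vldlr in AgNO3 0.00013. With the median over probes, fdps in AgNO3 became -0.0022, cyp51 in AgNPs -0.051, and the differences 0.115 for insig1, 0.040 for srebf2 and 0.034 for cyp51. Without AgNPs replicates 3 to 6, AgNPs values became -0.0096 for hmgcs1, -0.039 for fdft1, 0.61 for sqlea and 0.17 for srebf2. They became 0.042 for nsdhl, -0.0084 for mbtps2 and 0.025 for scarb2a, and the difference of fdft1 became 0.0185. Both AgNPs arrays left in that fit had exposed RNA in Cy5, so its dye term rests on the AgNO3 arrays alone. Such values cannot tell silver form from dye orientation: hmgcs1 itself stood at 0.24 and 0.11 on AgNPs replicates 1 and 2.

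Leaving out single arrays, AgNO3 values ran from -0.10 to 0.039 for hmgcs1, -0.047 to 0.042 for fdps, -0.083 to 0.0038 for srebf2, -0.042 to 0.017 for cyp51, -0.038 to 0.032 for vldlr and -0.14 to 0.014 for pnpla3. AgNPs values ran from -0.0085 to 0.021 for fdft1, -0.27 to 0.077 for sqlea, -0.091 to 0.034 for srebf2 and -0.13 to 0.12 for cyp51. Differences ran from -0.28 to 0.12 for sqlea, -0.0047 to 0.091 for lss, -0.084 to 0.041 for srebf2 and -0.14 to 0.11 for cyp51. The cause of these sign changes was not tested.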

Other observations

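Of the 15 other synthesis enzymes tested, 3 had an unadjusted limma p under 0.05 in AgNO3 minus AgNPs, where 4.22% of all features did, and 0 passed the adjustment (adjusted p = 0.86 each). The difference was -0.34 for mvda (95% interval -0.60 to -0.073), 0.25 for nsdhl (0.033 to 0.46) and -0.30 for ebp, the sterol delta8-delta7 isomerase gene (-0.60 to -0.0073). These genes act after mevalonate, and as deposited their differences do not share a sign. With the dye-swapped arrays turned, the differences were -0.033, -0.011 and -0.047. They were picked after their values were seen.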
